A study of Mus musculus with 5 samples.

Results

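Sox18, Alpl, Corin, Prdm1, Trps1, Edn3 and Prom1 are 7 genes known from the dermal condensate and the dermal papilla, out of 55536 annotated mouse genes, 22028 of them protein-coding. They were chosen by name for that role, but with earlier results of these data known. The study itself names Sox18 and Alpl as genes with less H3K27me3 at E18.5 than at E14.5. The choice was thus not blind to the data, and the direction of these genes is not an independent result. The H3K27me3 peaks of the 7 genes were read in 4 ChIP-seq libraries of wild-type (WT) dermal fibroblasts from mouse skin. Libraries of 2 embryonic stages were compared, 2 for each, and the cells of both had been expanded in culture before the assay. The stages are E14.5 and E18.5 in the study's methods, while the sample labels give embryonic day 14 and day 17. A further input library labelled for both stages was not analysed here. No allele, transgene or agent separates the groups, and nothing states whether the libraries of a stage came from separate animals. Differences between libraries therefore measure only the spread between these samples, which may be technical.

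The dermal papilla is the cluster of specialised fibroblasts at the base of the hair follicle that instructs the overlying epithelium to grow hair. It arises in the embryo from the dermal condensate, a group of fibroblasts that gathers under the epidermal placode. H3K27me3 is the trimethylated form of lysine 27 of histone H3, which Polycomb repressive complex PRC2 deposits and which marks genes held silent, often at start sites rich in CpG. Sox18 encodes a SoxF transcription factor of the dermal papilla that also acts in blood and lymphatic endothelium. Prdm1 encodes Blimp1 and Trps1 a GATA-type zinc-finger protein, and both are transcriptional repressors. Alpl encodes the tissue-nonspecific alkaline phosphatase that is stained to find the papilla, and Corin encodes a transmembrane serine protease that processes pro-atrial natriuretic peptide. Edn3 is a secreted endothelin that acts on melanocytes through the receptor Ednrb, and Prom1, or CD133, is a surface glycoprotein used to sort papilla cells.

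The data are lists of broad peaks, 1 for each library, in the coordinates of mm10, which is GRCm38. A gene was called marked at a stage when both libraries had a peak within 3000 bp of any of its annotated start sites. Covered length is the number of bases of these windows that lie under a peak. Positions are distances from the start site farthest 5′, counted in the direction of transcription, so that upstream positions are negative. The lists hold 21546 and 16574 peaks at E14.5, over 52.8 and 32.1 Mb, and 10429 and 7107 peaks at E18.5, over 20.0 and 14.3 Mb. No read counts came with the lists, so depth and counting error cannot be taken from them, and a gene without a peak had signal under the threshold of that list rather than no mark. In a bulk library, fewer cells with the mark and less of the mark in each cell cannot be told apart.

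To show what lies under and beside the peaks, the 250 bases before a RefSeq start site (GRCm38.p6) are printed for 4 start sites that differ in coverage and in CpG. The sequence tables hold an entry for 5 of the 7 genes, and Sox18 and Trps1 are the genes without an entry. CG dinucleotides are in capitals. CG reads the same on both strands, and 92.1% of the 32851 stretches of this length in the table hold at least 1, with a median of 6. The Alpl stretch, chr4:137796385-137796634 on the minus strand, holds 20 CG and lay wholly under a peak in 3 libraries and under none in E18.5 replicate 2. The Corin stretch, chr5:72504541-72504790 on the minus strand, holds 2 CG and lay wholly under a peak in all 4 libraries. The Edn3 stretch, chr2:174760369-174760618 on the plus strand, holds 7 CG and lay under no peak in any library, since the E14.5 peaks of Edn3 began downstream of the start. The Prdm1 stretch, chr10:44458749-44458998 on the minus strand, precedes the downstream, protein-coding start of that gene, holds 15 CG and lay under no peak in any library.
Alpl: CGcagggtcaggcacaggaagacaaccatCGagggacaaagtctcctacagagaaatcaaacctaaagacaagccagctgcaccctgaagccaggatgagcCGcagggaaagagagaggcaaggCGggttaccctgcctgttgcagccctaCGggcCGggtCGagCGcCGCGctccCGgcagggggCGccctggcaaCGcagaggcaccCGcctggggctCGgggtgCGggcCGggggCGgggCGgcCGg
Corin: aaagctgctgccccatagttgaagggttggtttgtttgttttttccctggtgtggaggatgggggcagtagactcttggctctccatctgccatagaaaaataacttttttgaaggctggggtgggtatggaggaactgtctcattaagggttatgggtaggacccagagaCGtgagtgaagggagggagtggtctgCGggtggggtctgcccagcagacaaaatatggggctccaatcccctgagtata
Edn3: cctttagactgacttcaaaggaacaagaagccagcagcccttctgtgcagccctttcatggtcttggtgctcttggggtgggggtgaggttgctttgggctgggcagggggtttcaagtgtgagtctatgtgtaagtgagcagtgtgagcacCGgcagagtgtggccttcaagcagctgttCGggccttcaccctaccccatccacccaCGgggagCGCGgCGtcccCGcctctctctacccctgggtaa
Prdm1: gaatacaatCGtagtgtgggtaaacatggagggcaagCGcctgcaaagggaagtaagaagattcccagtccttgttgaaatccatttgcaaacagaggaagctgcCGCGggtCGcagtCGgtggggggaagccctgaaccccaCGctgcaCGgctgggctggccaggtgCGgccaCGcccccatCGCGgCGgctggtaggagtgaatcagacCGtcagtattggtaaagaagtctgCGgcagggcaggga

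All 7 genes were marked at E14.5, where 11.6% of all genes and 19.4% of protein-coding genes were. At E18.5, 5 of the 7 were marked, where 7.1% of all genes and 12.2% of protein-coding genes were. With the lists cut to an equal number of peaks, 5 of the 7 were marked at each stage. Trps1 and Edn3 were marked at E14.5 and had none in either E18.5 library. Among genes marked at E14.5 this pattern was found in 25.1% of all genes and 23.8% of protein-coding genes, so 2 of 7 is close to the background. In each of the 7 genes, the covered length of both E18.5 libraries was below that of both E14.5 libraries. For Trps1 and Edn3 this follows from the lack of any E18.5 peak near a start. The other 5 genes, with a peak in every library, were all shorter. So were 74% of all genes and 77.8% of protein-coding genes with a peak in every library. The direction of the 5 is thus that of most such genes. For Sox18 and Alpl the study had already reported this direction, so the count of 7 is not independent of earlier results. With 2 libraries against 2, the two-sided exact permutation test gives p = 0.333 for each gene, which is the smallest value it can give.

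**Figure D1:**
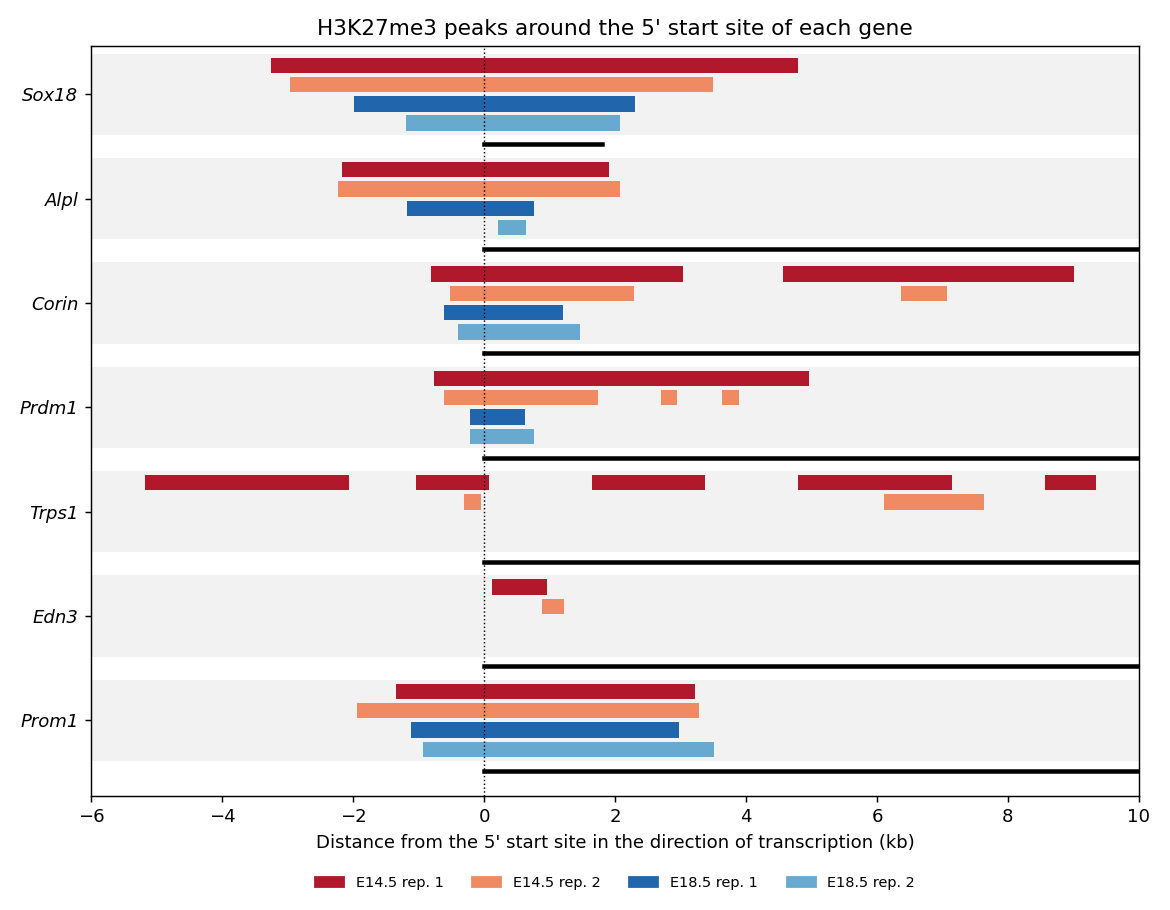
H3K27me3 peaks of the 7 genes in each of the 4 libraries, as coloured bars along the distance from the 5′ start site (kb, in the direction of transcription), with the gene body as a black line. Only the stretch around the 5′ start is drawn, which leaves out body peaks farther downstream, among them those of Trps1 at E18.5. In this stretch the peaks of Sox18, Alpl, Corin and Prdm1 have shorter bars in both E18.5 libraries. Trps1 and Edn3 have no E18.5 bars in it, and Prom1 has bars of similar extent in all 4 libraries.

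**Figure D2:**
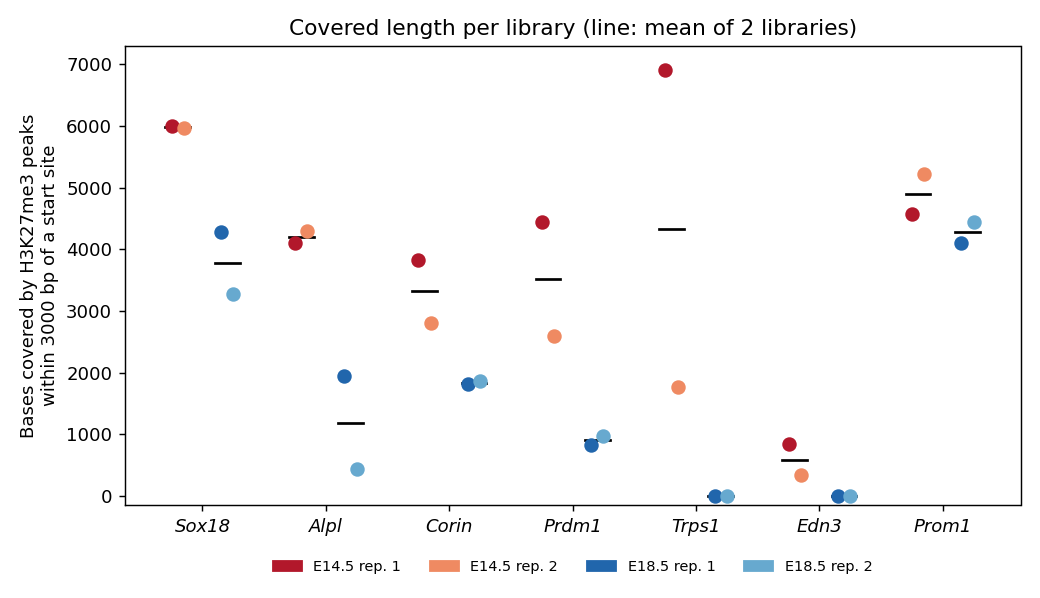
Bases covered by H3K27me3 peaks within 3000 bp of a start site (vertical axis) for each gene, with 1 point per library and a line at the mean of the 2 libraries of a stage. The 2 E18.5 points lie below the 2 E14.5 points for every gene, by the least for Prom1, where the nearest points are 4447 and 4573 bp.

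Among the transcription regulators, Sox18 had the broadest domain around its start. Sox18 (ENSMUSG00000046470, chr2:181669836-181671640, minus strand, 2 exons) has 1 annotated start site and a window of 6001 bp. Its covered length was 6001 and 5965 bp in the E14.5 libraries and 4290 and 3279 bp in the E18.5 libraries. The whole gene lay under a peak in all 4 libraries. The window limits the E14.5 values, because the peaks themselves were 8051 and 6468 bp wide at E14.5, against 4290 and 3279 bp at E18.5. The peak reached from -3261 to 4789 and from -2964 to 3503 at E14.5, and from -1989 to 2300 and from -1199 to 2079 at E18.5, so it drew in on both sides of the gene. The mean covered length was 5983 ± 25.5 bp (SD, n = 2) at E14.5 and 3784.5 ± 715 bp (SD, n = 2) at E18.5, which is 36.7% shorter. Within 1000 bp of the start, Sox18 was covered over all 2001 bp in every library, so the difference lay at the flanks.

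Prdm1 kept a short peak at its 5′ end. Prdm1 (ENSMUSG00000038151, chr10:44437177-44528501, minus strand) has 4 annotated start sites, and the peaks lay at the start farthest 5′, that of a transcript annotated as a retained intron. The other 3 starts, which belong to protein-coding transcripts, lie 69753 to 71291 bp farther downstream and were under no peak. The covered length was 4441 and 2595 bp at E14.5, against 834 and 975 bp at E18.5, and the stages did not overlap. The mean was 3518 ± 1305 bp (SD, n = 2) at E14.5 and 904.5 ± 99.7 bp (SD, n = 2) at E18.5, or 74.3% shorter. The E14.5 peak at the start reached from -761 to 4959 in replicate 1 and from -608 to 1739 in replicate 2. At E18.5 it reached from -209 to 624 and from -210 to 764, so both edges agreed closely between these libraries and lay inside both E14.5 peaks. When starts of protein-coding transcripts alone were used, Prdm1 had only a peak of 679 bp in E14.5 replicate 1 and was marked at neither stage.

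Trps1 had scattered peaks at E14.5 and almost none at E18.5. Trps1 (ENSMUSG00000038679, chr15:50654752-50890463, minus strand) has 8 annotated start sites. Its covered length near the starts was 6904 and 1767 bp at E14.5, against 0 bp in both E18.5 libraries. The E14.5 libraries themselves differed widely, with 5 peaks near the starts in replicate 1 and 2 in replicate 2. Of the 8 starts, only the one farthest 5′ was under a peak, and only in E14.5 replicate 1. In replicate 2 a peak of 249 bp ended 52 bp before that start. Over the gene body, which includes the introns, the covered length was 24088 and 6485 bp at E14.5, against 910 and 0 bp at E18.5. The body peaks of replicate 1 fell into a group within 10000 bp of the start and groups far into the gene, from 141452 to 205375 bp downstream of the start. All 8 peaks of E14.5 replicate 2 in the windows or the body overlapped peaks of replicate 1. The 2 body peaks of E18.5 replicate 1, of 424 and 486 bp, also overlapped peaks of E14.5 replicate 1. The windows of Mir1907 and of the lincRNA Gm48913 take in some of the same peaks near the Trps1 start.

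**Figure D3:**
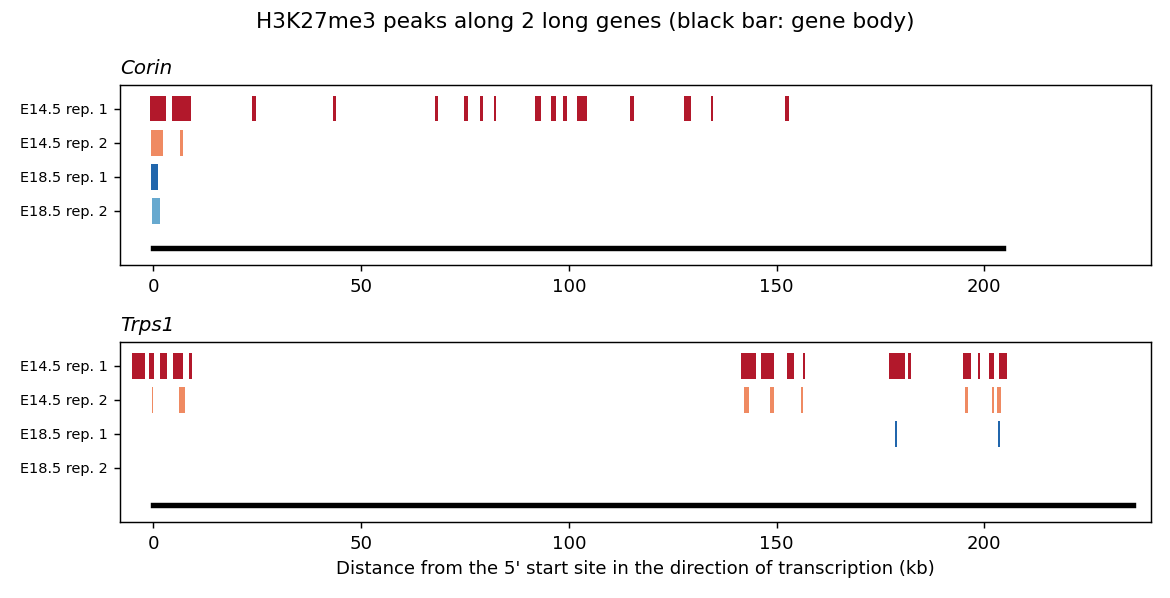
H3K27me3 peaks along the whole of Corin and Trps1, with 1 row of bars per library, distance from the 5′ start site in kb on the horizontal axis and the gene body as a black line. E14.5 replicate 1 has 16 peaks in the Corin body and 14 in the Trps1 body, while E18.5 has 1 and 1 in Corin and 2 and 0 in Trps1.

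Of the enzymes, Alpl had a single domain over its 5′ start. Alpl (ENSMUSG00000028766, chr4:137741733-137796384, minus strand) has 8 annotated start sites, and those within 154 bp of the 5′ end were under the peak while the others, 11013 bp or more downstream, were not. The covered length was 4104 and 4301 bp at E14.5, against 1939 and 432 bp at E18.5. The mean was 4202.5 ± 139 bp (SD, n = 2) at E14.5 and 1185.5 ± 1066 bp (SD, n = 2) at E18.5, or 71.8% shorter. The E18.5 libraries differed widely from each other, and the change was -53.9% when E18.5 replicate 2 was left out and -89.7% when replicate 1 was. The E14.5 peak reached from -2174 to 1908 and from -2229 to 2071, so the 2 libraries had nearly the same edges. At E18.5 it reached from -1171 to 767 in replicate 1. In replicate 2 it lay from 210 to 641, downstream of the start, where 382 of its 432 bases are exonic. E14.5 replicate 1 had another peak of 559 bp in the 3′ part of the gene, near the start of a processed transcript, which no other library had.

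Corin had a compact domain at its start in every library. Corin (ENSMUSG00000005220, chr5:72300025-72504473, minus strand) has 6 annotated start sites, 4 of them within 265 bp of the 5′ end, and these 4 were under a peak in all 4 libraries. The covered length was 3835 and 2802 bp at E14.5, against 1813 and 1859 bp at E18.5. The mean was 3318.5 ± 730 bp (SD, n = 2) at E14.5 and 1836 ± 32.5 bp (SD, n = 2) at E18.5, or 44.7% shorter. The upstream edge moved little, lying at -803 and -515 at E14.5 and at -606 and -399 at E18.5. The downstream edge lay at 3031 and 2286 at E14.5 and at 1206 and 1459 at E18.5, so the shorter length came mostly from the side inside the gene. Within 1000 bp of a start the covered length was 2069 and 1781 bp at E14.5, against 1813 and 1665 bp at E18.5, and the stages overlapped. In the rest of the gene body E14.5 replicate 1 had 15 more peaks, nearly all in introns, and E14.5 replicate 2 had 1. Both E18.5 libraries had 0 outside the start. The covered length of the Corin body was 22016, 2997, 1207 and 1460 bp in the order E14.5 replicates 1 and 2 and E18.5 replicates 1 and 2, so E14.5 replicate 1 alone held the intronic stretch. In that library 111 protein-coding genes had a longer covered body than Corin, and 91 had a longer one than Trps1. These ranks are not adjusted for gene length or for the strength of the peaks. By the ratio of signal to local background, the body peaks had a median percentile in that list of 22.0 for Corin and 46.4 for Trps1. Most of the Corin body peaks thus lay in the lower part of the list. Corin and Trps1 span 204449 and 235712 bp, of which 10.8% and 10.2% were covered in that library.

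Edn3, the secreted ligand, had the shortest coverage of the 7 genes at E14.5. Edn3 (ENSMUSG00000027524, chr2:174760619-174784042, plus strand) has 4 annotated start sites. Its covered length was 848 and 336 bp at E14.5, against 0 bp in both E18.5 libraries. The peak reached from 117 to 964 in replicate 1 and from 891 to 1226 in replicate 2, and the peaks shared only 74 bp. Nearly all of it was exonic, with 815 of 848 bases in replicate 1 and 316 of 336 in replicate 2. The -log10 q-value of the replicate 2 peak was 3.07, at percentile 40.0 of that list, whose lowest value was 2.07. When each list was cut to its 7107 peaks of highest -log10 q-value, the size of the shortest list, Trps1 and Edn3 kept a peak in E14.5 replicate 1 alone and no longer met the rule for a mark at E14.5.

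Prom1, the surface glycoprotein, had nearly the same domain at both stages. Prom1 (ENSMUSG00000029086, chr5:43993620-44102032, minus strand) has 15 annotated start sites, and the 7 within 2846 bp of the 5′ end were under a peak in all 4 libraries. The covered length was 4573 and 5227 bp at E14.5, against 4102 and 4447 bp at E18.5. The mean was 4900 ± 462 bp (SD, n = 2) at E14.5 and 4274.5 ± 244 bp (SD, n = 2) at E18.5, or 12.8% shorter. The change was -6.53% when E14.5 replicate 2 was left out and -18.2% when E14.5 replicate 1 was. The E18.5 lengths were below the E14.5 lengths by as little as 126 bp, which is less than the spread between the replicates of either stage. Within 1000 bp of a start, Prom1 was covered over 3771 and 3827 bp at E14.5, against 3525 and 3992 bp at E18.5, and the stages overlapped. The antisense gene Gm16401 and the TEC-class transcript Gm42966 have start sites in reach of the same peak. When each list was cut to the covered length of the shortest list, Prom1 had no peak in either E14.5 library. Its E18.5 peaks were kept, so its direction turned under that cut. The cut was uneven, leaving 1545 and 2413 peaks at E14.5, against 4110 and 7107 at E18.5, so it removed far more of the E14.5 lists. Under that setting only Sox18 and Corin were still marked at E14.5.

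Set beside other genes, the decreases of the 5 genes with a peak in every library spread over most of the range of marked genes. Their median decrease was 44.7%, against 37.8% for the 2645 protein-coding genes with a peak in every library, whose quartiles were 19.3% and 55.2%, and 36.0% for the 3871 such genes of all kinds. Prdm1 and Alpl lay low in this distribution, at percentiles 6.35 and 8.09 of the change. Near its protein-coding starts alone, Prdm1 was marked at neither stage. Corin lay at percentile 39.6, Sox18 at 51.2 and Prom1 at 82.4. The covered length of these genes thus ranged from nearly kept at Prom1 to mostly gone at Prdm1. With windows of 3000 bp either side, Sox18 lay in the middle of all marked genes. These windows cut off part of both E14.5 peaks of Sox18 and no part of its E18.5 peaks, so its place depends on them. In the wider window tried, the change was -47.9% for Sox18 and -58.5% for Corin. The place of Sox18 among all marked genes was not tested in that window.

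**Figure D4:**
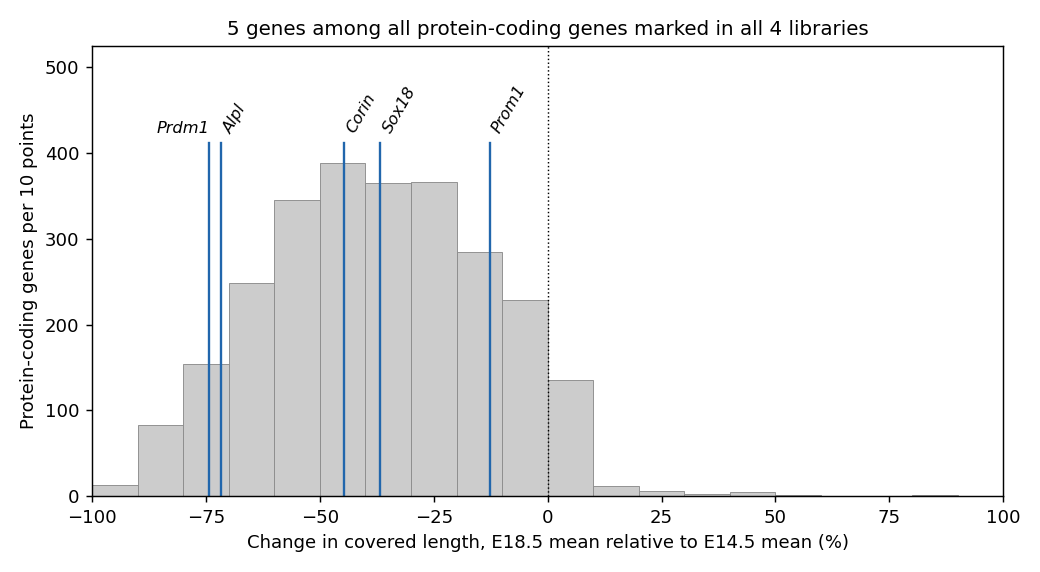
Histogram of the change in covered length (E18.5 mean relative to E14.5 mean, in percent) over 2645 protein-coding genes covered near a start in all 4 libraries, in bins of 10 percentage points, with blue lines at 5 of the 7 genes. Prdm1 and Alpl lie in the lower tail, Corin and Sox18 near the middle and Prom1 toward 0; 2 genes with changes above 100% are outside the axis.

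The place of E18.5 coverage was compared with that of E14.5. For 4 of the 5 genes, Sox18, Alpl, Corin and Prdm1, every E18.5 base under a peak in the windows was also under an E14.5 peak. This held for 86.9% of all genes and 86.2% of protein-coding genes with a peak in every library. Prom1 was the exception, with 227 bp at E18.5 outside the E14.5 peaks. The stretch under a peak in all 4 libraries was 3918 bp at Prom1, 3279 bp at Sox18, 1606 bp at Corin, 834 bp at Prdm1 and 432 bp at Alpl.

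The peaks were placed by rank within their own list, because the fold enrichment, which is the ratio of a peak's signal to its local background, is set within each library. The value given is the percentile of a gene's strongest peak near a start site among all peaks of the same list. The lists differ in length, and a list without its weaker peaks gives a lower percentile to a peak that itself is the same, so ranks of the stages are set side by side as a description. Over protein-coding genes with a peak in every library, the median of this percentile was 93.3 and 90.7 at E14.5, against 84.0 and 74.6 at E18.5. Sox18 was at 96.6 and 94.4 at E14.5 and at 82.6 and 82.4 at E18.5. Corin was at 98.4 and 95.3 at E14.5, the highest of the 7 genes in replicate 1, and at 78.0 and 74.4 at E18.5. Prdm1 was at 93.3 and 95.7 at E14.5 and at 74.3 and 42.9 at E18.5. These 3 of the 5 genes had lower ranks in both E18.5 lists than in both E14.5 lists, as did 73.6% of all genes and 73.4% of protein-coding genes with a peak in every library, so this order is that of most such genes. In the list of E18.5 replicate 1, Sox18, Corin and Prdm1 all lay below the median of protein-coding genes with a peak in every library. In the list of E18.5 replicate 2, Sox18 lay above that median, Corin close to it and Prdm1 below it. Alpl was at 92.1 and 86.2 at E14.5 and at 87.8 and 94.1 at E18.5, so its rank overlapped between the stages although its length did not. The 432 bp Alpl peak of E18.5 replicate 2 was thus narrow and high, at percentile 19.7 of its list by width. Prom1 was at 87.1 and 74.1 at E14.5 and at 86.3 and 76.4 at E18.5, and the ranks overlapped. Trps1 was at 71.5 and 50.6 and Edn3 at 74.0 and 44.0 at E14.5, so the genes with no peak at E18.5 were those with the lowest E14.5 ranks.

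**Figure D5:**
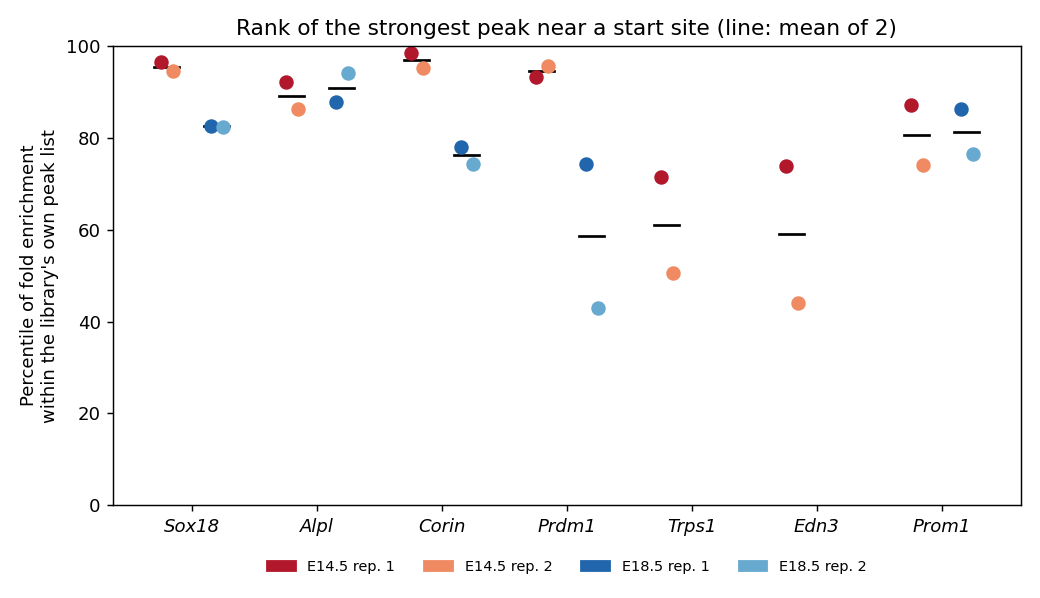
Percentile of fold enrichment of the strongest peak near a start site, within the peak list of its own library (vertical axis, 0 to 100), with 1 point per library and a line at the mean of the 2 libraries of a stage. Sox18, Corin and Prdm1 have lower points at E18.5, the points of Alpl and Prom1 overlap between stages, and Trps1 and Edn3 have no E18.5 point.

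CpG content was read from the genome as a property that did not enter the choice of the genes. The ratio of observed to expected CpG in the 1001 bp around the 5′ start was 0.806 for Trps1, 0.770 for Sox18, 0.688 for Alpl, 0.664 for Prdm1, 0.560 for Edn3, 0.556 for Corin and 0.461 for Prom1. The median was 0.552 over protein-coding genes and 0.607 over those marked at E14.5, so Edn3, Corin and Prom1 lay below the median of the marked genes. Trps1 and Edn3, the genes without a peak at E18.5, thus lay at the top and in the lower part of this order. The value of Prdm1 is that of its retained-intron start, not of its protein-coding starts farther downstream. For the 5 genes with a peak in every library, the bases within 10000 bp of the start that both E18.5 libraries kept were set beside those covered in both E14.5 libraries and in neither E18.5 library. At Sox18 the ratio was 0.634 in the 3279 kept bases and 0.0963 in the 2178 bases no longer covered. At Alpl it was 0.676 against 0.251, and at Corin 0.572 against 0.247. At Prdm1 it was 0.634 against 0.559. At Prom1 the order was the other way, with 0.490 in the kept part and 0.515 in the 225 bases no longer covered. The kept part was thus richer in CpG in 4 of these 5 genes, and in 82.4% of 2044 protein-coding genes with at least 200 bp of each part.

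For each of the 5 genes, the 3 protein-coding genes with the most similar covered share of their windows over the 4 libraries were found, by the sum of the absolute differences in percentage points. For Sox18 these were Zic1, Kcnj4 and Cdh22, the nearest at a sum of 5.49. For Alpl they were Amph, Acvr2b and Adam11, the nearest at 1.12. For Corin they were 6330409D20Rik, Esyt3 and Csmd3, the nearest at 1.87. For Prdm1 they were Pth1r, Shmt2 and Med12l, the nearest at 4.55, and for Prom1 Greb1, Mapre3 and Zfp664, the nearest at 2.10. With 4 libraries and 22028 genes to choose from, such likeness is a description only.

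Other genes known from the dermal condensate and papilla were read in the same way. Of 30 such genes, 23 met the rule for a mark at E14.5 and 17 did so at E18.5, and 6 had no peak in any library. Over protein-coding genes the shares marked were 19.4% and 12.2%. Of the 17 with a peak in every library, 12 were shorter in both E18.5 libraries, with a median decrease over the 17 of 25.1%, against 77.8% of protein-coding genes and a median of 37.8%. Nog, a secreted BMP antagonist, Fgf10, a growth factor, and Tbx18, a T-box transcription factor, were marked at E14.5 and had no peak in either E18.5 library. These are 3 of the 23 marked at E14.5, against 23.8% of protein-coding genes. Their covered lengths at E14.5 were 968 and 1722 bp for Nog, 439 and 1128 bp for Fgf10, and 5772 and 1484 bp for Tbx18. Sox2, a transcription factor of the condensate chosen here after its values were seen, was covered over 6001, 6001, 6001 and 5951 bp in the same order of libraries.

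Of 26 paralogues and pathway partners, 15 met the rule at E14.5 and 13 did so at E18.5, and 11 had no peak in any library. Of the 13 with a peak in every library, 7 were shorter in both E18.5 libraries, with a median decrease over the 13 of 13.9%, against the same 77.8% and 37.8% of protein-coding genes. Coverage beyond a window is not counted in this list or the one before, so a change outside it would not be seen. Prdm12 and Prdm13, named after their values were seen, were covered over 6001 and 6183 bp in every library. Ednrb, the receptor for Edn3, was marked at E14.5 over 2472 and 2062 bp and had no peak at E18.5, as was the case for Edn3 itself. It was the only one of the 15 marked at E14.5 with this pattern, against 23.8% of protein-coding genes. The other genes of the endothelin group named after their values were seen, Edn1, Edn2 and the receptor Ednra, had no coverage of their windows in any library. The SoxF genes related to Sox18, also named afterwards, were covered at E18.5 over 5250 and 6001 bp at Sox7 and 9045 and 9575 bp at Sox17. Windows differ in size between genes, so these lengths are not set against that of Sox18.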

How the data were processed

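H3K27me3 ChIP-seq peak lists of 4 libraries were used, 2 at each stage. The authors aligned reads with Bowtie2 2.3.5.1 and called broad peaks with MACS2 2.2.7.1 with its broad setting and a threshold on the q-value, separately for each library; versions and the build, mm10, are those of the submitters' processing notes. The deposited lists give each peak a fold enrichment, a ratio to local background, and a −log10 p-value and −log10 q-value. The control and read filters are not given in the sources used here. Subsampling is stated for E18.5 samples without saying whether it covers these libraries. The labels give culture in DMEM, sonication and an Ion Torrent kit, the methods AmnioMAX medium, enzymatic digestion and Illumina sequencing.

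Start sites, 132850 in all, came from GENCODE vM21. Windows of 3000 bp either side of each start site were merged within a gene, and covered bases were counted with numpy 2.4.6 and pandas 2.3.3 (Python 3.11.15; scipy 1.17.1), tested on simulated data. The genes, the lists and the tests were chosen with earlier results of these data known. Named were the 7 genes, list genes with peaks at a single stage, and the 3 genes most like each of the genes marked in every library. Lists covered 30 condensate and papilla genes, 26 paralogues and partners, and markers of fibroblasts, endothelium, keratinocytes, melanocytes and nerve, immune cells and muscle. Covered lengths were compared by the exact permutation test, two-sided. Alternatives changed the q-value and width thresholds, the window, the start sites, the joining of peaks, the list lengths, the replicate rule and the libraries included. Without read counts, no error could be set on any 1 peak.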

Additional observations from a re-analysis of the deposited data

How the results depend on the processing

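The 7 genes marked at E14.5 became 4 at a −log10 q-value of at least 5, and 2 in lists of equal covered length. The 5 marked at E18.5 became 2 at that q-value and 3 with peaks of at least 1000 bp. The 2 marked at E14.5 only became 0 in lists of equal number or of equal covered length, and 1 when the gene body was added, since Trps1 had E18.5 body peaks. At a −log10 q-value of at least 5 the count stayed at 2, but the genes were Corin and Prdm1. With peaks of at least 1000 bp they were Trps1 and Prdm1. The 7 genes shorter at E18.5 became 4 at a −log10 q-value of at least 5 and 4 within 1000 bp of a start, and 2 in lists of equal covered length, where Prom1 had no E14.5 peak and so no percent change; there Alpl and Prdm1, each with a peak in 1 E14.5 library, changed by -44.9% and -23.0%. The change in covered length was below 0 in all alternatives that gave a value for the 7 genes, except for Sox18 within 1000 bp, where it was 0. For all genes with a peak in every library, the share shorter at E18.5 ranged from 50.0% within 1000 bp to 86.4% without E18.5 replicate 1. The mean percentile of fold enrichment, E18.5 minus E14.5, was 1.78 for Alpl and turned to -1.13 without E14.5 replicate 2 and to -1.34 when replicate 2 of E18.5 was left out, with a range of -1.34 to 4.90 over the 4 left-out libraries. It was 0.762 for Prom1 and turned to -5.71 without E14.5 replicate 2 and to -4.17 when replicate 1 of E18.5 was left out, with a range of -5.71 to 7.24. Libraries share only a replicate number, with r = 0.098 between deviations of the same-numbered libraries across genes. With a replicate block, which compares the stages within each replicate number, all 7 genes were shorter at E18.5. Among all genes with a peak in every library, a set that leaves out Trps1 and Edn3, 82.1% were shorter, against 74% without the block. A gene with both E18.5 lengths below both E14.5 lengths always passes the block as well. The result of the block for the 7 genes was thus fixed in advance. The cause of these changes was not tested.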

Other observations

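The lists of markers were read for the same mark. All 12 markers of dermal fibroblasts, among them Col1a1, Pdgfra and Twist2, had no H3K27me3 peak near a start site in any of the 4 libraries. Most genes lack such a peak, since the marked share of protein-coding genes was 19.4% at E14.5, against 12.2% at E18.5, and the counts that follow stand beside these shares. Of 11 markers of blood and lymphatic endothelium, where Sox18 also acts, 5 were marked in every library and 6 in none, with summed lengths of 28394 and 24358 bp at E14.5, against 19178 and 19991 bp at E18.5. Flt4, a receptor of lymphatic endothelium named after its values were seen, was longer at E18.5, with 4811 and 4376 bp at E14.5, against 6001 and 5431 bp at E18.5. Of 7 keratinocyte markers, 3 were marked in every library, with summed lengths of 17719 and 15431 bp at E14.5, against 10513 and 10823 bp at E18.5. Of 6 markers of melanocytes and nerve, 2 were marked in every library, with 12664 and 9023 bp at E14.5, against 6438 and 5242 bp at E18.5. Of 5 immune markers, Cd3e was marked at E14.5 only, over 10093 and 1419 bp, and of 4 muscle markers, Myf5 was marked at E14.5 only, over 3359 and 463 bp, with 2 others marked in every library. A peak on a marker gene shows the mark in the cells assayed, and what share of the cells belongs to each type was not tested.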
